A study of Homo sapiens with 3 samples.

Results

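The genes described here encode enzymes and partner proteins that modify histones, DNA or nucleosomes. They were chosen by symbol: deacetylases (HDAC, SIRT), acetyltransferases (KAT), methyltransferases and PR-domain proteins (SETD, EHMT, MLL, PRDM), demethylases (KDM), PHD finger (PHF) and bromodomain (BRD) proteins, TET enzymes, chromatin remodellers (CHD, SMARC, ARID) and, by single name, DNMT1, DNMT3A, HP1BP3 and NAP1L4. Of 11271 genes with an exon-skipping event in either of 2 deposited tables, 120 met this rule, with 603 of 39434 exons. The symbol rule also takes in genes that do something else: PHF5A is a spliceosome subunit, SETD5-AS1 is an antisense RNA, and HDAC10 acts on polyamines.

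RNA came from BJ cells, an established line of human foreskin fibroblasts, on day 8 after induced expression from virus of 4 transcription factors (OCT4, SOX2, KLF4, MYC) that turn fibroblasts into pluripotent cells. One library was from cells given a non-targeting siRNA, 1 from cells given siRNA against SMAD3, a transcription factor of TGF-beta signalling, and 1 from cells given siRNA against SFRS11, a splicing factor; no group had a replicate. Each table sets a library coded RS2 or RS3 against the same remaining library, the comparator, and no label ties these codes to a siRNA. Since both tables use the comparator, a value that it alone sets would appear in both, and like values in RS2 and RS3 are not independent. Of the fibroblast markers, 9 of 10 had a listed exon in both tables, against 3 of 6 epithelial and 1 of 6 pluripotency markers in RS2 and 4 of 6 and 2 of 6 in RS3; a listed exon does not measure how much RNA a gene made.

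Histone acetylation and methylation, DNA methylation and the sliding or ejection of nucleosomes decide which parts of the genome can be transcribed, and all are rewritten when a fibroblast becomes a pluripotent cell. Most enzymes involved work in large complexes, such as SWI/SNF (SMARC and ARID1 subunits), NuRD (CHD3 or CHD4 with HDAC1 and HDAC2), and CoREST with the demethylase KDM1A. A skipped exon whose length is a multiple of 3 leaves the reading frame intact and changes the protein locally, whereas other lengths shift the frame.

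The quantity compared is the inclusion level, the share of transcripts across the exon's position that keep it. A difference is RS2 or RS3 minus the comparator, so it runs from -1 to 1 and a positive value means higher inclusion than in the comparator. Rows with a deposited FDR (the p-value adjusted over the table) under 0.05 and an absolute difference of at least 0.1 are named called. The FDR compares the reads of 2 libraries and not 2 conditions. Read depth is unknown, so single differences have no interval. An exon can stand in several rows, which the tables list without the neighbouring exons that would tell them apart.

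The called exons lie at different places in their transcripts, and sequences are shown for some of them. The 6 given here are among the called exons that lie wholly in the coding sequence in every annotated coding transcript that holds them. They are shown 5′ to 3′ from GENCODE 29 transcripts, with the last 3 bases, which form part of the splice donor site, in capitals.
HDAC10, 97 bases: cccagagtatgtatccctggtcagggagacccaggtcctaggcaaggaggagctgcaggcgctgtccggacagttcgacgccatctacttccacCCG
HDAC3, 143 bases: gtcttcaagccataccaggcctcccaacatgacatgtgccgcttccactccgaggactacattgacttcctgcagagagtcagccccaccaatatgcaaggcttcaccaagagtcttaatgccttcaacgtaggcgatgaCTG
KDM1A, 60 bases: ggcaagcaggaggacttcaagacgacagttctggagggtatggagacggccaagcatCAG
CHD3, 102 bases: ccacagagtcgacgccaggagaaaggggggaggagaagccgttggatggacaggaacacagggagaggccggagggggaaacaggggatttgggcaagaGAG
CHD1L, 166 bases: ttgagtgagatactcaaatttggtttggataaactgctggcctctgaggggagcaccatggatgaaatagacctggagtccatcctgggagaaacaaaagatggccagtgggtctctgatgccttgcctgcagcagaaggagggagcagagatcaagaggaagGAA
CHD1L, 149 bases: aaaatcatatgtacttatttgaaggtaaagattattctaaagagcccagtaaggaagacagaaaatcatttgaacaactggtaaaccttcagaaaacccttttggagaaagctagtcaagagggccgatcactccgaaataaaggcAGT
Of these the KDM1A and CHD3 exons keep the frame by their length, and 0 in-frame stop codons were found in any of the 6. Of 587 member exons matched to the annotation, 472 (80.4%) end in G; the CHD1L exons shown end in A and T.

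In RS2, 3 of 510 member exons were called, all with higher inclusion, against 0.0800% of all exons in the table (0.0326% with higher and 0.0474% with lower inclusion). They lay in 3 of 119 genes (2.52%), against 0.238% of all genes. In RS3, 10 of 545 member exons (1.83%) were called, 4 with higher and 6 with lower inclusion, against 1.13% of all exons (0.274% higher and 0.861% lower). They lay in 8 of 118 genes (6.78%), against 3.05% of all genes. A gene counts as called if any of its exons was. Members had 510 listed exons in 119 genes in RS2 and 545 in 118 in RS3. The whole tables had 33745 exons in 10526 genes in RS2 and 34977 in 10723 in RS3. Members thus had more listed exons per gene, so the gene shares are not like for like. HP1BP3, NAP1L4 and DNMT1 are in the rule by name, and the rule was written with earlier results of these data known. With the gene families alone, 1 of 490 exons in RS2 (0.204%) and 9 of 521 in RS3 (1.73%) were called, so the RS2 share rests largely on the named genes.

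**Figure D1:**
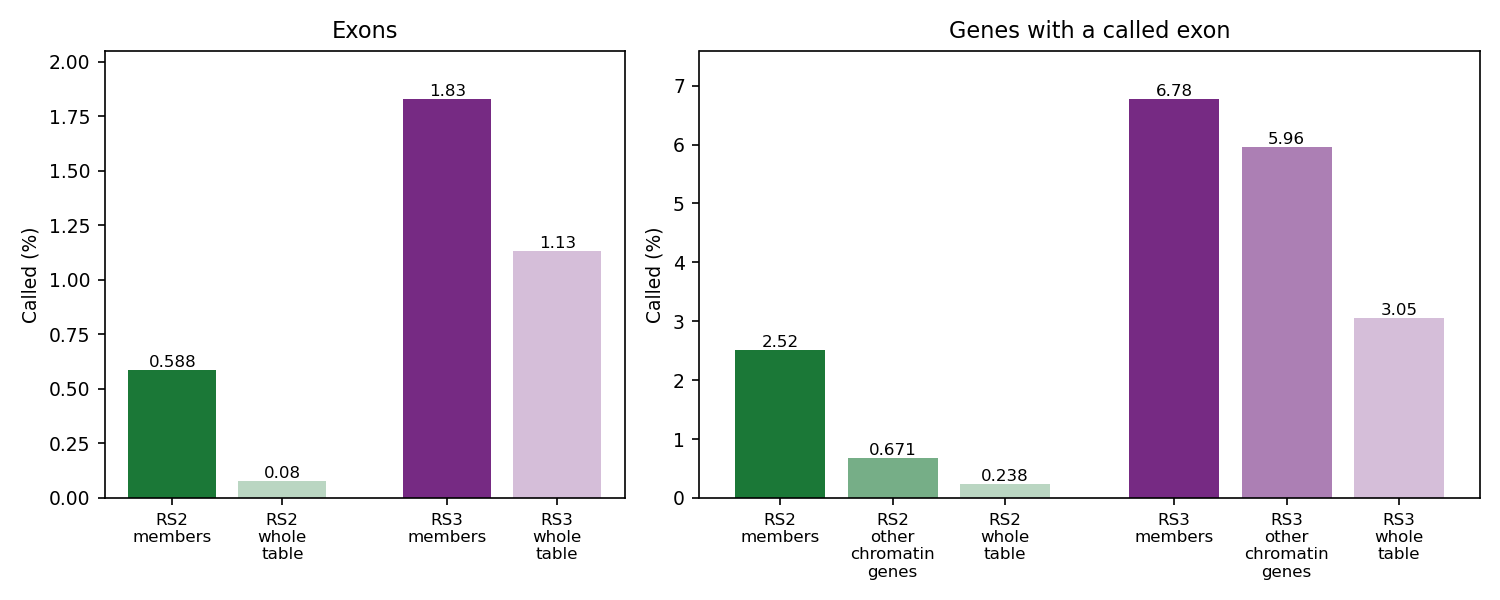
Percentage of exons (left) and of genes (right) called in each table, for the members, for a list of other chromatin genes (genes only) and for the whole table. Members stand above the whole table in each panel, with 3 exons behind the RS2 bars and 10 behind the RS3 bars. Members and list were chosen with earlier results of these data known. With the gene families alone, which is not drawn, 1 of 490 member exons in RS2 (0.204%) was called. Gene shares also depend on the number of listed exons per gene, which is higher for members.

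Most member exons differed little from the comparator. Over 608 RS2 rows the median difference was 0.002 (quartiles -0.015 and 0.01525), beside 0 over all rows of that table. Over 634 RS3 rows it was -0.001 (quartiles -0.023 and 0.02), beside -0.001 over all rows. Lower values made up 50.5% of member rows in RS3 and 51.1% of all rows. An absolute difference of at least 0.1, whatever its FDR, was listed for 15.6% of member rows in RS2 and 18.8% in RS3, against 19.2% and 21.2% of all rows.

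**Figure D2:**
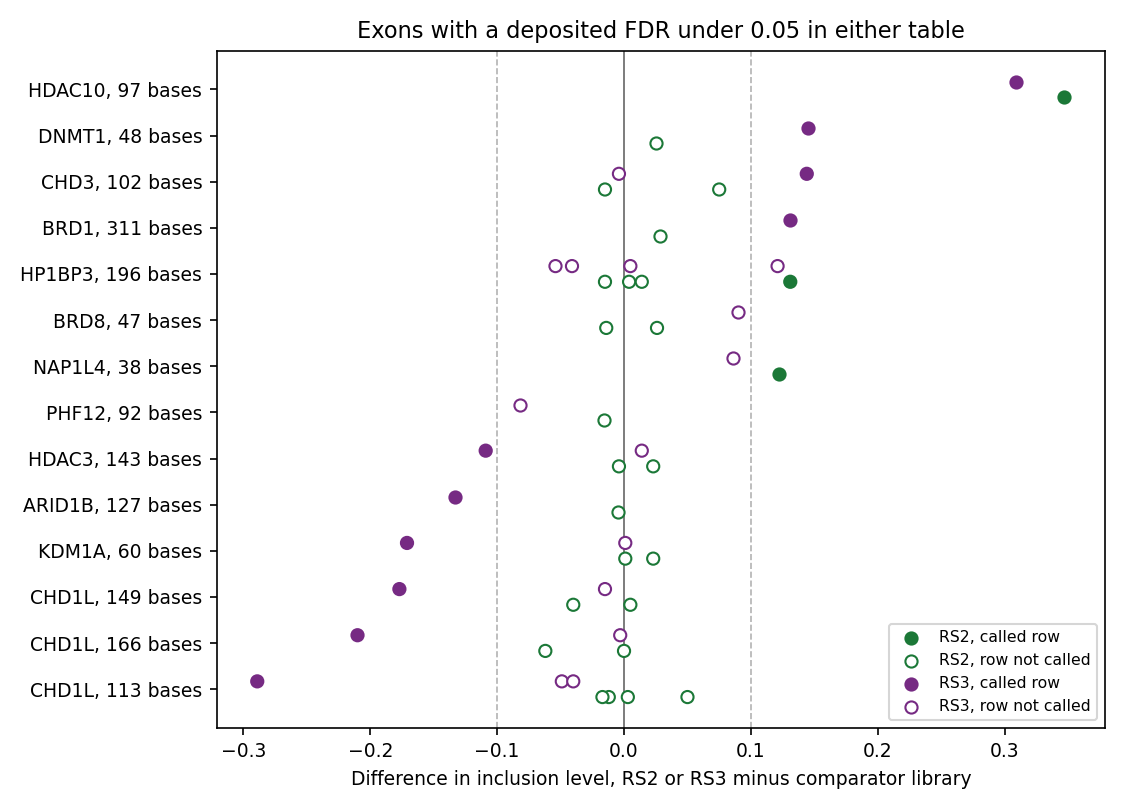
Difference in inclusion level (horizontal axis) for the 14 exons with a deposited FDR under 0.05 in either table, 1 point per deposited row, green for RS2 and purple for RS3; filled points are called rows and dashed lines mark an absolute difference of 0.1. HDAC10 is filled in both tables (0.347 and 0.309), and the 3 CHD1L exons hold the lowest RS3 values, down to -0.289.

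Among the deacetylases, HDAC10 had the largest called difference of the members in each table. HDAC10 (ENSG00000100429) removes acetyl groups from polyamines. Its 97-base exon (hg19, chromosome 22, 50688856 to 50688952, minus strand) is exon 3 of 20 in the matched transcript. In the authors' deposited tables its inclusion was higher by 0.347 in RS2 (FDR 0.00522) and by 0.309 in RS3 (FDR 0.00127), with 1 row in each. Of the annotated HDAC10 transcripts, 6 hold this exon and 7 skip it, and its length shifts the frame. The other HDAC10 exons had no called row: the authors' deposited tables list from -0.2 to 0.172 over 16 rows in RS2 and from -0.397 to 0.333 over 17 rows in RS3. The upper RS3 end is a 96-base exon with an FDR of 0.496 and an RS2 value of 0.01 in the authors' deposited tables.

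HDAC3 (ENSG00000171720), a catalytic subunit of corepressor complexes, had lower inclusion of a 143-base exon in RS3. This exon (chromosome 5, 141014378 to 141014520, minus strand) is exon 3 of 15 and breaks the frame when skipped. One RS3 row was -0.109 (FDR 0.0034) and the other 0.014 (FDR 1) in the authors' deposited table. Neither RS2 row was called in the authors' deposited table, with 0.023 and -0.004. All other HDAC3 rows lay within 0.05 of 0 in the authors' deposited tables, from -0.015 to 0.037 over both libraries. Of 17 listed deacetylase genes, only HDAC10 was called in RS2, and only HDAC10 and HDAC3 in RS3, beside 0.238% and 3.05% of all genes. HDAC1 and HDAC2, the deacetylases of NuRD and CoREST, had 0 called rows, with -0.011 to 0.028 and -0.204 to 0.016 over both libraries in the authors' deposited tables.

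The sirtuins, the NAD-dependent deacetylases, had no called row, and wide values were listed for single exons of SIRT1, SIRT6 and SIRT2. Others were narrower: in RS2 SIRT7 rows lay between -0.014 and 0.015 and SIRT3 rows between -0.005 and 0.08 in the authors' deposited table. SIRT1 had 1 listed exon, with -0.46 in RS2 and -0.422 in RS3 per the authors' deposited tables and an FDR of 1 in both. For SIRT6, which acts on histone H3 and in DNA repair, a 128-base exon was at 0.175 in RS2 per the authors' deposited table, its FDR being 0.192. Its RS3 rows were -0.057 and -0.017 in the authors' deposited table, both with an FDR of 1. SIRT2, mainly a cytoplasmic deacetylase, had a 47-base exon at -0.158 and -0.009 in RS2 and at -0.059, -1 and -0.015 in RS3 per the authors' deposited tables, none called. Depth is unknown, so these differences cannot be ranked against each other.

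Demethylation had 1 called exon. KDM1A (ENSG00000004487, also called LSD1) removes methyl groups from lysine 4 of histone H3 in the CoREST complex. Its 60-base exon (chromosome 1, 23370920 to 23370979, plus strand) is an alternative exon near the start of the protein and is exon 3 of 21 in the 1 annotated transcript that holds it; 2 skip it. One RS3 row fell by 0.171 with an FDR listed as 0 in the authors' deposited table, and the other row was 0.001 (FDR 1). In RS2 the rows were 0.023 and 0.001 in the authors' deposited table, both with an FDR of 1. The other KDM1A exons, 7 in each library but not all the same, were nearly constant, between -0.007 and 0.02 over both in the authors' deposited tables. The other 15 demethylase genes had 0 called exons in RS3, and all 16 had 0 in RS2. With 3.05% of all genes called in RS3 and 0.238% in RS2, these counts of 0 do not set them apart. KDM8 had a 72-base exon at -0.256 in RS3 and -0.091 in RS2 and a 167-base exon at -0.255 in RS2 and -0.004 in RS3 per the authors' deposited tables, with FDR values of 0.333 to 1. KDM3B, a demethylase of histone H3 lysine 9, had the smallest RS2 p-value of the family at -0.089 (FDR 0.616), and -0.054 in RS3 (FDR 0.828), in the authors' deposited tables.

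DNA methylation also had 1 called exon. DNMT1 (ENSG00000130816) copies methylation onto newly replicated DNA. The 48-base exon (chromosome 19, 10290863 to 10290910, minus strand) is known as the extra exon of the DNMT1b form and derives from an Alu repeat. It was included more in RS3, by 0.145 (FDR 3.77e-05), and stood at 0.025 in RS2 (FDR 1) in the authors' deposited tables. Its length keeps the frame, and the annotation has 4 transcripts with it and 5 without it. Of the other DNMT1 rows, all 7 in RS2 and 7 of 8 in RS3 lay within 0.05 of 0 in the authors' deposited tables; the remaining RS3 row was 0.508 with an FDR of 1. DNMT3A, which sets new methylation, had 0 called rows; its 199-base exon with the smallest RS2 p-value of the family was at 0.03 in RS2 (FDR 0.99) and -0.015 in RS3 (FDR 0.9) in the authors' deposited tables. TET1 and TET2, which oxidise methylcytosine, had 0 called rows. Since only 0.238% of all genes were called in RS2 and 3.05% in RS3, counts of 0 do not set DNMT3A, TET1 and TET2 apart.

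Remodelling enzymes and their subunits had 5 of 133 exons called in RS3, beside 1.13% of all exons. In RS2 they had 0 of 123, and with 0.0800% of all exons called there a count of 0 does not set them apart. CHD1L (ENSG00000131778), a remodeller that binds poly(ADP-ribose) at DNA damage, had 3 of its 12 listed RS3 exons called, all lower. The 113-base exon (chromosome 1, 146724278 to 146724390, plus strand) had rows of -0.289 (FDR 0.000383), -0.049 and -0.04 in RS3 per the authors' deposited table. The 166-base exon (146751699 to 146751864) had -0.21 (FDR 4.5e-07) and -0.003 in RS3 per the authors' deposited table. The 149-base exon (146756024 to 146756172) had -0.177 (FDR 2.17e-05) and -0.015 in RS3 per the authors' deposited table. In each exon 1 row was low and the others lay nearer to 0. The 166- and 149-base exons are neighbours, exons 15 and 16 of 23. Each breaks the frame alone, both together span 315 bases, a multiple of 3, and 0 annotated transcripts that reach across them lack either.

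In RS2 none of the 19 CHD1L rows was called. The same 3 exons were listed there in the authors' deposited table at 0.05, 0.003, -0.012 and -0.017, at -0.062 and 0, and at -0.04 and 0.005. Over all 19 RS3 rows of CHD1L, 15 were below 0 and 4 above, with a median of -0.04; in RS2, 9 were below, 9 above and 1 at 0. Rows of the same exon are not separate observations. Taking 1 row per exon, 9 CHD1L exons were lower and 3 higher in RS3. Over all genes, 51.1% of RS3 rows were below 0. Rows of the middle exons ranged widely without being called, from -1 (93 bases, FDR 0.848) to 0.636 (82 bases, FDR 1) in RS3 per the authors' deposited table.

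**Figure D3:**
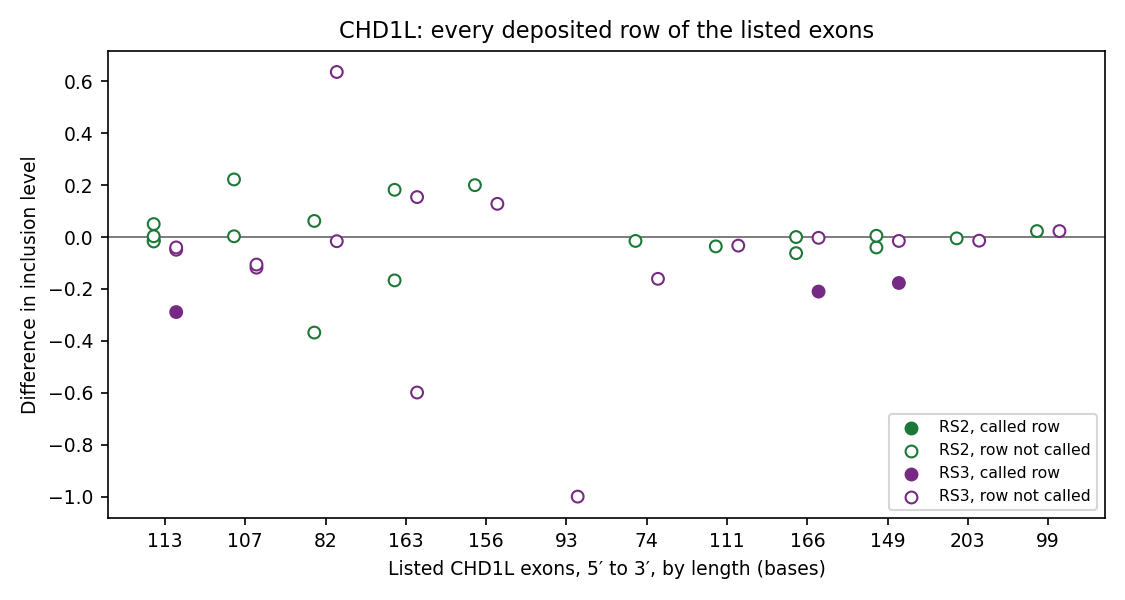
Difference in inclusion level (vertical axis) for every deposited row of the CHD1L exons listed in either table, ordered 5′ to 3′ and labelled by length in bases; green is RS2, purple is RS3 and filled points are called rows. The called RS3 rows, -0.289, -0.21 and -0.177, belong to exon 2 and to the neighbouring exons 15 and 16 of 23.

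CHD3 and ARID1B had 1 called exon each, in opposite directions. CHD3 (ENSG00000170004) is an ATPase of the NuRD complex, and its 102-base exon (chromosome 17, 7810919 to 7811020, plus strand) is exon 33 of 40 and keeps the frame. Its RS3 rows were 0.144 (FDR 9.6e-07) and -0.004 in the authors' deposited table. RS2 had 0.075 (FDR 0.349) and -0.015 in the authors' deposited table, neither of them called. All other CHD3 rows lay between -0.01 and 0.032 over both libraries in the authors' deposited tables. ARID1B (ENSG00000049618) is a DNA-binding subunit of SWI/SNF. Inclusion of its 127-base exon (chromosome 6, 157471861 to 157471987, plus strand) fell by 0.133 in RS3 (FDR 0.00184) in the authors' deposited table, beside -0.005 in RS2 (FDR 1); this exon was not matched to the annotation. The catalytic SWI/SNF subunits SMARCA4 and SMARCA2 and the core subunits SMARCB1 and SMARCC1 had 0 called rows. So few genes without a call are not set apart where 0.238% of all genes were called in RS2 and 3.05% in RS3. CHD4, the other main NuRD ATPase, stayed between -0.003 and 0.001 in all 11 rows of both authors' deposited tables.

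Among readers of acetyl-lysine, BRD1 (ENSG00000100425), a scaffold of acetyltransferase complexes, had higher inclusion of a 311-base exon (chromosome 22, 50181225 to 50181535, minus strand). The difference was 0.131 in RS3 (FDR 0.0221) and 0.028 in RS2 (FDR 1) in the authors' deposited tables. This exon was not matched to the annotation. A 498-base exon of BRD1 was at 0.025 in RS2 and 0.03 in RS3 per the authors' deposited tables, neither called. BRD8 (ENSG00000112983), a subunit of the TIP60 acetyltransferase complex, had a 47-base exon past the FDR threshold with a difference of only 0.09 in RS3 (FDR 0.00138) in the authors' deposited table. It was listed at 0.026 and -0.014 in RS2 per the authors' deposited table. A 45-base BRD8 exon had rows of -0.086 and 0.013 in RS2 and of -0.123 (FDR 0.126) and 0.013 in RS3 per the authors' deposited tables, none called. PHF12 (ENSG00000109118), a PHD finger protein of the SIN3 corepressor, was the only other such case, at -0.082 in RS3 (FDR 0.00018) and -0.016 in RS2 (FDR 1) in the authors' deposited tables, for a 92-base exon held by 1 annotated transcript, which is not protein-coding, and skipped by 9. Rows past the FDR threshold but under 0.1 were thus 2 of 634 among RS3 members (0.315%) and 0 of 608 in RS2, against 0.677% and 0.0934% of all rows.

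HP1BP3 and NAP1L4 had their called exons in RS2. HP1BP3 (ENSG00000127483) is a linker histone-related protein, and its 196-base exon (chromosome 1, 21106838 to 21107033, minus strand) is coding in part. The called RS2 row was 0.131 (FDR 0.0332) in the authors' deposited table, and the other rows of the exon were 0.014, 0.004 and -0.015. In RS3 the 4 rows were 0.121 (FDR 0.139), 0.005, -0.041 and -0.054 in the authors' deposited table, on both sides of 0 and none called. A 191-base form with the same end was at 0.119 in RS2 (FDR 0.464) and 0.117 in RS3 (FDR 0.339) in the authors' deposited tables. NAP1L4 (ENSG00000205531), a histone chaperone, had a 38-base exon (chromosome 11, 2970457 to 2970494, minus strand), exon 15 of 16, that rose by 0.122 in RS2 (FDR 0.0112) in the authors' deposited table. It was at 0.086 in RS3 with an FDR of 0.0776 in the authors' deposited table. Its remaining exons lay between -0.023 and 0.001 over both libraries in the authors' deposited tables.

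The methyltransferases and PR-domain proteins, the PHD finger proteins and the acetyltransferases had 0 called exons in either table. That is 0 of 95, 67 and 13 exons in RS2 and 0 of 97, 75 and 13 in RS3. With 0.0800% and 1.13% of all exons called, counts of 0 in families of this size do not set them apart. EHMT1, which methylates lysine 9 of histone H3, had a 78-base exon at -0.076 in RS2 (FDR 0.542) and -0.109 in RS3 (FDR 0.272) in the authors' deposited tables. KAT5, the catalytic subunit of TIP60, had a 156-base exon at 0.002 in RS2 (FDR 1) and 0.082 in RS3 (FDR 0.199) in the authors' deposited tables. KAT2A, the acetyltransferase of the SAGA complex, was at 0.027 in RS2 and 0.004 in RS3 for a 111-base exon in the authors' deposited tables, both with an FDR of 1.

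**Figure D4:**
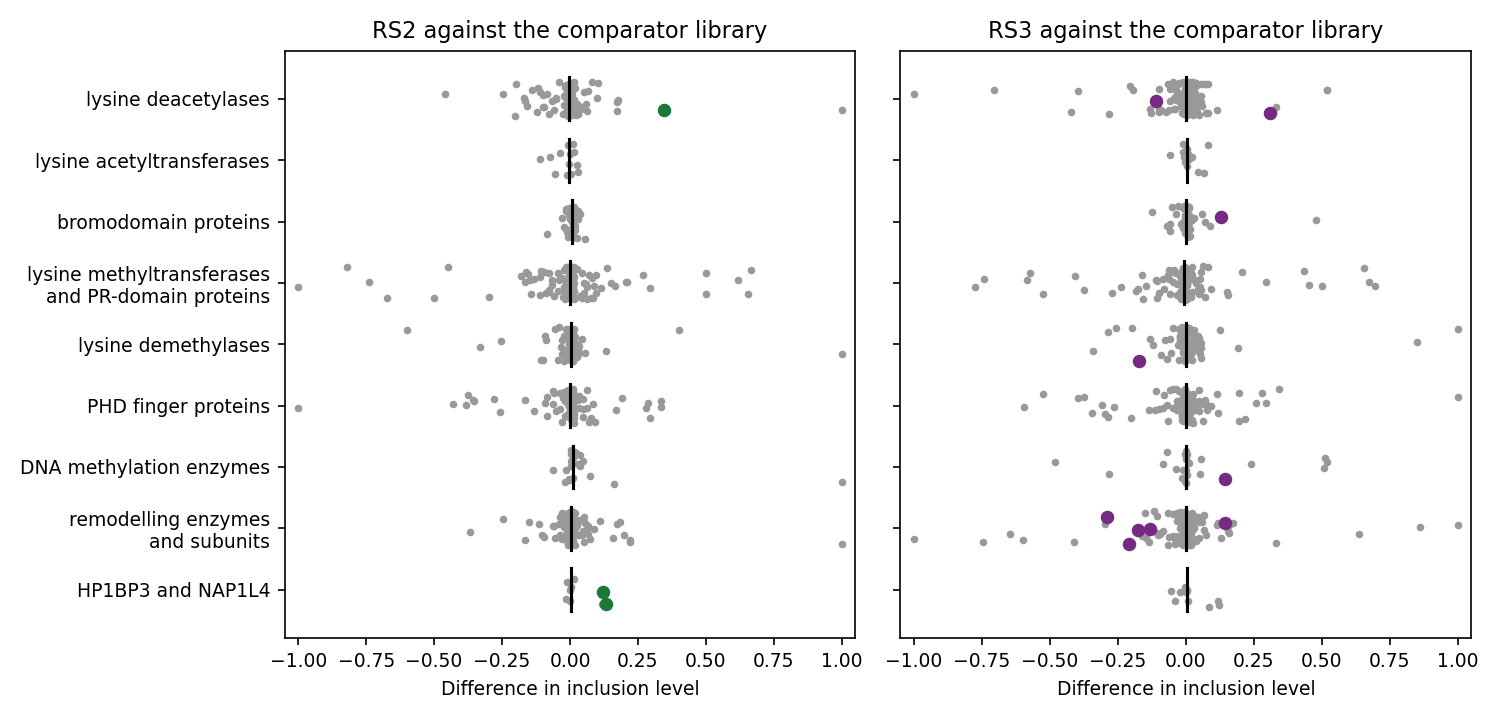
Difference in inclusion level (horizontal axis) of every member row by gene family (vertical axis) in RS2 (left) and RS3 (right); grey points are rows not called, coloured points are called rows and black lines are medians. Medians lie within 0.0115 of 0 in each family. Grey rows reach from -1 to 1, beyond the called rows, which lie between -0.289 and 0.347.

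Rows with an unadjusted p-value under 0.05 and an FDR of 0.05 or more numbered 24 of 608 members in RS2 (3.95%) and 41 of 634 in RS3 (6.47%), against 4.35% and 5.97% of all rows. PHF19, a Polycomb-associated reader of methylated histone H3, had an 88-base exon at 0.294 in both libraries in the authors' deposited tables, with FDR values of 0.581 in RS2 and 0.518 in RS3; its second rows were 0.002 and -0.016. PRDM8, a PR-domain transcription factor, had a 254-base exon at 0.269 in RS2 (FDR 0.46) and 0.022 in RS3 (FDR 1) in the authors' deposited tables. Its 127-base exon ranged from -0.5 to 0.619 over 4 rows in RS2 and from -0.776 to 0.452 over 4 rows in RS3 per the authors' deposited tables. The rows of the 127-base exon lie on both sides of 0 in each library.

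In RS3 the set further held HDAC8 at -0.705 (113 bases, FDR 0.544), PHF5A at -0.524 (128 bases, FDR 0.525) and BRD9, a SWI/SNF bromodomain subunit, at 0.477 (513 bases, FDR 0.545) in the authors' deposited table. The same HDAC8 exon was at 0.172 and 0.104 in RS2 per the authors' deposited table, with other RS3 rows of -0.131 and -0.019. SETD4 was at -0.239 (94 bases, FDR 0.392) and SETD3, an actin methyltransferase, at -0.176 (149 bases, FDR 0.416) in RS3, beside -0.162 and -0.041 in RS2, in the authors' deposited tables. A CHD1L exon of 74 bases was at -0.161 in RS3 (FDR 0.451) and -0.015 in RS2 per the authors' deposited tables. In RS2 the set held SETD8, which monomethylates lysine 20 of histone H4, at -0.146 (122 bases, FDR 0.83), with -0.107 in RS3 (FDR 0.743) in the authors' deposited tables. SMARCC2, a core SWI/SNF subunit, was at -0.115 in RS2 (66 bases, FDR 0.84) and 0.075 in RS3 (FDR 0.909) in the authors' deposited tables.

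Of 33 genes with a known part in reprogramming or pluripotency, 29 had a listed exon in RS2 and 28 in RS3. None had a called row in RS2, where 0.238% of all genes did, so a count of 0 of 29 does not set them apart. In RS3, where 3.05% of all genes were called, 4 of 28 were: DNMT1, KDM1A, HDAC3 and ARID1B. The list was chosen with earlier results of these data known, and DNMT1 is in the symbol rule by name. Genes with more listed exons also have more chances of a call. Whether the listed genes differ from all genes was not tested. KDM2B, a demethylase that recruits Polycomb complexes, stayed between -0.016 and 0.029 over both libraries in the authors' deposited tables. SMARCA4 stayed between -0.056 and 0.028 and SMARCB1 between -0.002 and 0.004 over both in the authors' deposited tables. Wide ranges without a call were also listed: in the authors' deposited tables KDM4B ran from -0.108 to 1 in RS2 and from -0.028 to 0.849 in RS3, TET1 from -0.061 to 1 and from 0.238 to 0.52, and CHD1 from -0.745 to -0.012 in RS3. SMARCC1 reached -0.648 and DNMT3A ran from -0.481 to 0.511 in RS3 per the authors' deposited table. SMARCA2 ran from -0.248 to 0.118, KDM6A from -0.06 to 0.132 and TET2 from -0.281 to 0.074 over both libraries in the authors' deposited tables. KDM5B, ARID3A, KAT2A and KAT8 stayed within 0.05 of 0 in both authors' deposited tables. TET3, EHMT2, CHD7 and PRDM16 had no listed exon. PRDM14, a pluripotency factor, was listed in RS2 only, with 1 exon at -0.739 and an FDR of 1 in the authors' deposited table.

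**Figure D5:**
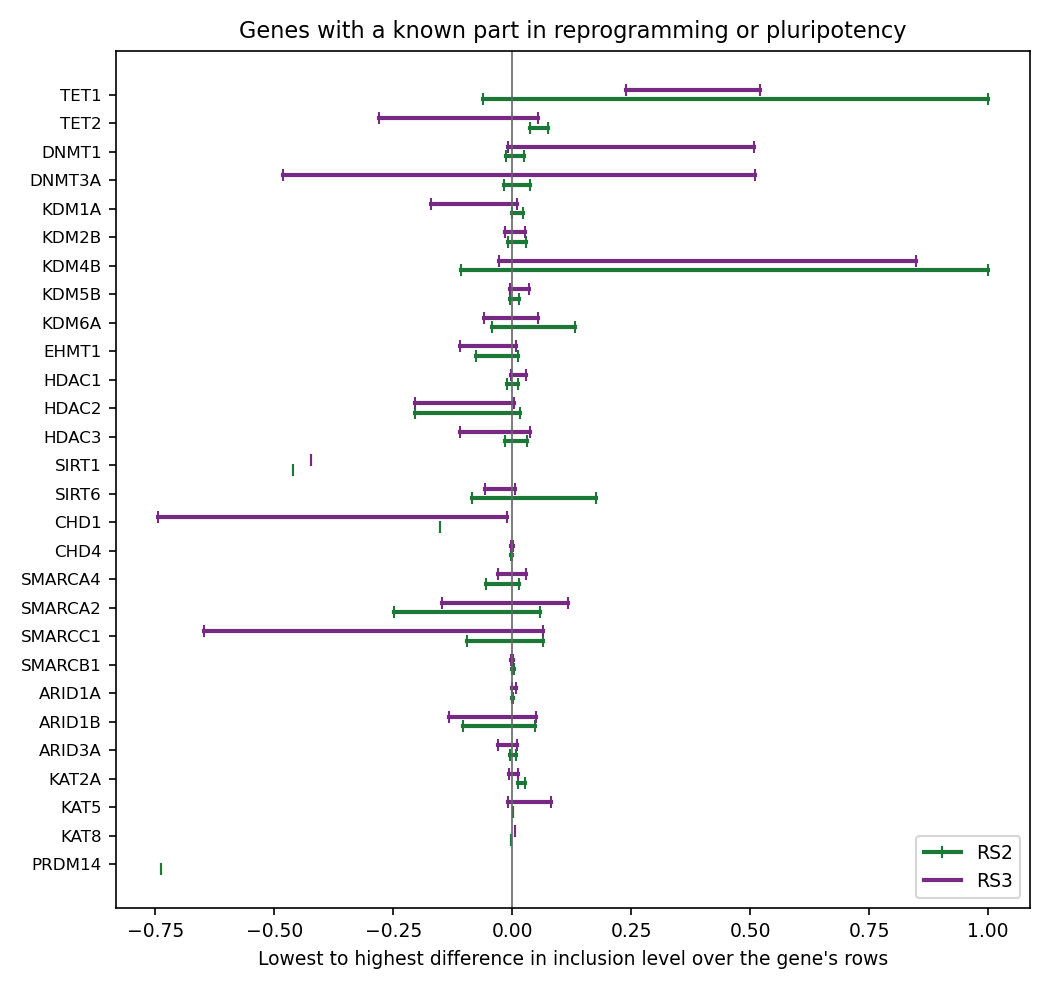
Lowest to highest difference in inclusion level (horizontal axis) over all deposited rows of each gene shown (vertical axis), green for RS2 and purple for RS3; ticks mark the ends. CHD4, SMARCB1 and ARID1A span less than 0.01 in each library, and long bars such as TET1 and KDM4B reach values with an FDR of 1.

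A list of other chromatin genes, which the symbol rule leaves out, had 1 of 149 listed genes called in RS2 (0.671%) and 9 of 151 in RS3 (5.96%). The shares over all genes were 0.238% and 3.05%. This list too was chosen with earlier results of these data known, and genes with more listed exons have more chances of a call. Whether the list differs from all genes was not tested. In RS3, 8 of the 9 called genes had lower and 1 had higher inclusion. Among all exons called in RS3, 301 were lower and 96 higher, so a lean to lower inclusion is not particular to this list. MTA1, a NuRD subunit, had a 51-base exon at -0.268 in RS3 (FDR 1.04e-07) and -0.127 in RS2 (FDR 0.166) in the authors' deposited tables. HIRA, a chaperone of histone H3.3, was at -0.336 for an 89-base exon in RS3 (FDR listed as 0) and at 0.02 in RS2 (FDR 1) in the authors' deposited tables. PRMT2, an arginine methyltransferase, was the gene with higher inclusion, at 0.151 in RS3 (FDR 1.61e-10) and 0.062 in RS2 (FDR 0.17) in the authors' deposited tables. The acetyltransferase gene CREBBP (-0.399), the coactivator gene NCOA1 (-0.346), SAP130 of the SIN3 complex (-0.181), UHRF2 (-0.245) and the remodeller subunit gene INO80E (-0.107 to -0.285 over 4 overlapping exon forms) were also called in RS3, per the authors' deposited table.

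The lengths of the member exons resembled those of the whole tables. Multiples of 3 made up 40.6% of 510 member exons in RS2 and 39.6% of 545 in RS3, beside 41.3% and 41.4% of all exons, and median lengths were 123 bases in both against 119 and 120. Of the called member exons, 0 of 3 in RS2 and 3 of 10 in RS3 have a length that is a multiple of 3. Among all called exons the shares were 66.7% of 27 in RS2 and 51.8% of 396 in RS3. The member counts are small, and 3 of the 10 exons lie in CHD1L. Length alone does not give the frame: the called HP1BP3 and NAP1L4 exons are wholly coding in no annotated transcript. The called ARID1B and BRD1 exons were not matched to the annotation.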

How the data were processed

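The 2 deposited exon-skipping tables of BJ fibroblasts give a difference in inclusion level (a score from -1 to 1) with its p-value and FDR in each row, per the file headers. The submitters' processing notes name STAR, FastQC and hg19; the splicing program and the use of strand in counting are not given in the sources used here. No value was taken from 4 columns of inclusion level per library, since no label ties them to a siRNA; these were looked at only to read the sign as first library minus second.

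Rows with FDR under 0.05 and an absolute difference of at least 0.1 were called. An exon (gene, strand, start, end) counted as called if any row was; otherwise its row with the smallest p-value is given. Named were all called or FDR-passing member exons, the 10 largest uncalled ones per table with p under 0.05 (1 per gene), the smallest p-value per family, a list of reprogramming genes, and other called chromatin genes. A few items named by the rule are left unreported. Members and lists were chosen with earlier results of these data known.

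Exons were matched to GENCODE 29 (GRCh38) by gene identifier, strand, length and spacing (within 50 bases) to at least 1 other listed exon of the gene; 587 of 603 matched (97.3%), 547 of them with 2 or more other exons in agreement. No coordinate was carried between builds, and printed coordinates are the tables' hg19 positions counted from 1. Python 3.11.15, pandas 2.3.3 and numpy 2.4.6 were used, and the calling code was tested on simulated data.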

Additional observations from a re-analysis of the deposited data

Results flagged for a closer look

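Of the called member exons, 3 lay on opposite sides of the comparator in the 2 libraries, taking the row with the smallest p-value in the library without a call. In the authors' deposited tables these were the 60-base KDM1A exon, with -0.171 in RS3 and 0.023 in RS2, the 113-base CHD1L exon, with -0.289 in RS3 and 0.05 in RS2, and the 143-base HDAC3 exon, with -0.109 in RS3 and 0.023 in RS2. The RS2 values are small and were not called, each exon has several rows that cannot be paired between the tables, and RS3 was not tested against RS2. With the median over all RS2 rows, the CHD1L exon was at -0.0045, on the same side as in RS3. The KDM1A and HDAC3 exons stayed on the other side, at 0.012 and 0.0095.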

How the results depend on the processing

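The called member exons in RS2 numbered 3; 1 was left with an FDR under 0.01, 1 with a minimum difference of 0.2, and 1 (HDAC10) with the gene families alone, an alternative chosen after seeing the data. In RS3 they numbered 10; 3 were left with a minimum difference of 0.2, and between 9 and 12 under the other settings. The other chromatin genes called went from 1 to 0 in RS2 with a minimum difference of 0.2 and stayed between 7 and 11 in RS3. Adjusting the p-values anew by Benjamini-Hochberg took 0 rows across the threshold in either table. The members' median difference was 0.002 in RS2 under each setting, and in RS3 it was -0.001, or 0.001 over exons in a single row. With the median over all rows of an exon in place of 1 row, 16 of 75 values moved by 0.05 or more and 0 called values changed sign; among called exons, RS3 became -0.085 for KDM1A, -0.0475 for HDAC3, 0.07 for CHD3 and -0.049, -0.1065 and -0.096 for CHD1L (113, 166 and 149 bases), and RS2 became 0.009 for HP1BP3. No paired analysis was possible because each group has 1 library. Depth is unknown, so a missing call does not show that an exon was unchanged.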

Other observations

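HDAC7, a deacetylase that binds MEF2 transcription factors, had a 111-base exon on opposite sides of the comparator with a low unadjusted p-value in each library: -0.1 in RS2 (p = 0.0045, FDR 0.539) and 0.115 in RS3 (p = 0.00316, FDR 0.134) in the authors' deposited tables. Neither was called, and RS3 was not tested against RS2. This exon was singled out after its values were seen.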
